A study of Mus musculus with 6 samples.

Results

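The class 3 semaphorins and their neuropilin receptors are 9 genes of the mouse, namely the ligands *Sema3a*, *Sema3b*, *Sema3c*, *Sema3d*, *Sema3e*, *Sema3f* and *Sema3g* and the receptors *Nrp1* and *Nrp2*. They were taken by gene symbol from the 55357 genes in the deposited counts, and all 9 passed the filter on low counts that left 21876 genes for the test. The data were 6 poly(A) RNA-seq libraries of wild-type mouse primary neurons, cultured from the cortex and hippocampus of C57BL/6N embryos at embryonic day 18. All cultures received pLVTHM lentivirus at day in vitro (DIV) 4 and were collected at DIV 14. In 3 libraries (shCtrl) the virus expressed a scrambled shRNA and in the other 3 (sh*Pla2g4e*) an shRNA against *Pla2g4e*, the gene of an enzyme that makes N-acyl phosphatidylethanolamines in the brain. The cultures are mixed and were sequenced in bulk, so that fewer cells of a type and less RNA per cell cannot be told apart, and the labels do not say whether the libraries of a group came from separate cultures. Where they did not, the p-values measure only the spread between these libraries, which may be technical.

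Class 3 semaphorins are the secreted members of the semaphorin family. They steer growing axons and dendrites, mostly by repulsion, and their gradients orient cortical pyramidal neurons and prune axon branches. Most of them bind a neuropilin, which has only a short cytoplasmic tail, and the signal enters the cell through a plexin of the A family that forms the receptor complex with it. Sema3A works mainly through neuropilin-1 and Sema3F mainly through neuropilin-2, whereas Sema3E can bind plexin-D1 without a neuropilin. Neuropilins also bind the vascular endothelial growth factor VEGF.

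Values are given in CPM, the reads of a gene relative to the size of its library after scaling with the TMM factors of edgeR, and in the order shCtrl replicates 1, 2 and 3 and then sh*Pla2g4e* replicates 1, 2 and 3. Genes were called differentially expressed (DEGs) where the adjusted p of edgeR's quasi-likelihood test was below 0.01. *Pla2g4e* itself stood at 38.0, 35.1 and 35.4 CPM in shCtrl and at 21.8, 14.2 and 18.7 CPM in sh*Pla2g4e* libraries, with 50.5% of the transcript left (log2 fold change −0.99, adjusted p = 1.24e-04). Between 17054717 and 23570180 reads were counted per library. In all 1419 DEGs were called, of which 61.7% were lower in sh*Pla2g4e* libraries. With scaling by library size alone 43.3% of 1405 calls were lower, and the median over all genes of the log2 fold change moved from 0.03 to 0.10.

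The shRNA that the study carried forward, sh2, leaves a guide strand whose bases 2 to 8, its seed, can pair with other mRNAs. The labels do not give the sequence used in these libraries. The target and guide are shown because the seed match GTGGCCA also occurs in several members, and capitals mark the match, or in the guide the seed.
sh2 target: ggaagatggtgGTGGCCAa
sh2 guide: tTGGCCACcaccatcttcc
In *Pla2g4e* the match lies in exon 11 of 20 (chr2:120182754-120182760, minus strand), and here and below coordinates of matches are those of GRCm38, on which the transcripts of GENCODE vM21 are built. Among the members *Nrp2* alone held it in the 3′ UTR of the transcript with its longest coding sequence, as did 12% of 15501 genes searched. That match is in exon 17 of 17 (chr1:62815859-62815865, plus strand).
Nrp2 3′ UTR: caggactgtgGTGGCCAagtgaatgca
In coding sequences 5 of 9 members held the match, as did 25.6% of 15799 genes. They were *Sema3a* in exon 3 (chr5:13455549-13455555, plus strand), *Sema3b* in exon 12 (chr9:107601855-107601861, minus strand), *Sema3f* in exon 9 (chr9:107687828-107687834, minus strand), *Sema3g* in exon 8 (chr14:31222346-31222352, plus strand) and *Nrp2* in exon 5 (chr1:62745456-62745462, plus strand).
Sema3a coding: aaaagattgtGTGGCCAgtatcttaca
Sema3b coding: aatgacctggGTGGCCAgcggagcttg
Sema3f coding: aacgatgacgGTGGCCAttgctgcctg
Sema3g coding: aatgatgctgGTGGCCAgcgggtgctg
Nrp2 coding: ggacatggcaGTGGCCAaggatggctt
*Sema3c*, *Sema3d*, *Sema3e* and *Nrp1* held none in either part.

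Of the genes tested 4.0% were called lower and 2.48% higher, and 1 of the 9 members was called lower and 1 higher. *Sema3a* fell and *Sema3d* rose, and the other 7 did not pass this test, which does not pair libraries by replicate number. With replicate number as a block in the model, *Nrp2* passed as well (adjusted p = 0.00245). Among the 9 members 4 had a negative and 5 a positive log2 fold change, with a median of 0.12, and among all genes tested 10162 were lower and 11714 higher with a median of 0.03. In 3 members, *Sema3a*, *Sema3d* and *Sema3e*, the groups did not overlap, and this was so for 30.0% of all genes.

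*Sema3a*, the best known repellent of the class and an attractant for apical dendrites of cortical neurons, stood at 52.9, 60.5 and 50.1 CPM in shCtrl and at 32.5, 23.1 and 31.7 CPM in sh*Pla2g4e* libraries. Every sh*Pla2g4e* library lay well below every shCtrl library, and replicate 2 was both the highest of the shCtrl and the lowest of the sh*Pla2g4e* libraries. The mean fell from 54.5 ± 5.42 to 29.1 ± 5.24 CPM (SD, n = 3), which left 53.4% of the transcript. The log2 fold change was −0.91 ± 0.12 (standard error, with an adjusted p of 1.29e-04). Within replicate numbers 1, 2 and 3 the log2 differences were −0.70, −1.39 and −0.66. The reads behind these values were 499 to 1203 per library, and *Sema3a* was called under each of the 16 alternative fits or scalings, with log2 fold changes from −0.99 to −0.76 when 1 library was left out. About 2.59% of the stretches of 50 bases in its longest coding transcript also occur in other genes.

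*Sema3d*, a relative of *Sema3a* that guides axons and neural crest cells, was a gene of low level here. It stood at 5.72, 5.34 and 6.57 CPM in shCtrl and at 10.04, 17.4 and 8.34 CPM in sh*Pla2g4e* libraries. The groups did not overlap, but the sh*Pla2g4e* libraries were spread widely, with replicate 2 far above the others and replicate 3 close to the highest shCtrl library. The mean rose from 5.88 ± 0.632 to 11.9 ± 4.81 CPM (SD, n = 3), a log2 fold change of 1.02 ± 0.23 (standard error, with an adjusted p of 0.00666) with 106 to 376 reads per library. Within replicate numbers 1, 2 and 3 the log2 differences were 0.81, 1.70 and 0.34. This call depended on single libraries and on the fit. It held in 9 of 16 alternatives, and without sh*Pla2g4e* replicate 2 the log2 fold change was 0.65 (adjusted p = 0.0380). Without shCtrl replicates 1, 2 or 3 the adjusted p was 0.0256, 0.0412 and 0.0146, and by limma after voom it was 0.0143. With replicate number as a block in the model, the adjusted p was 2.47e-06.

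**Figure D1:**
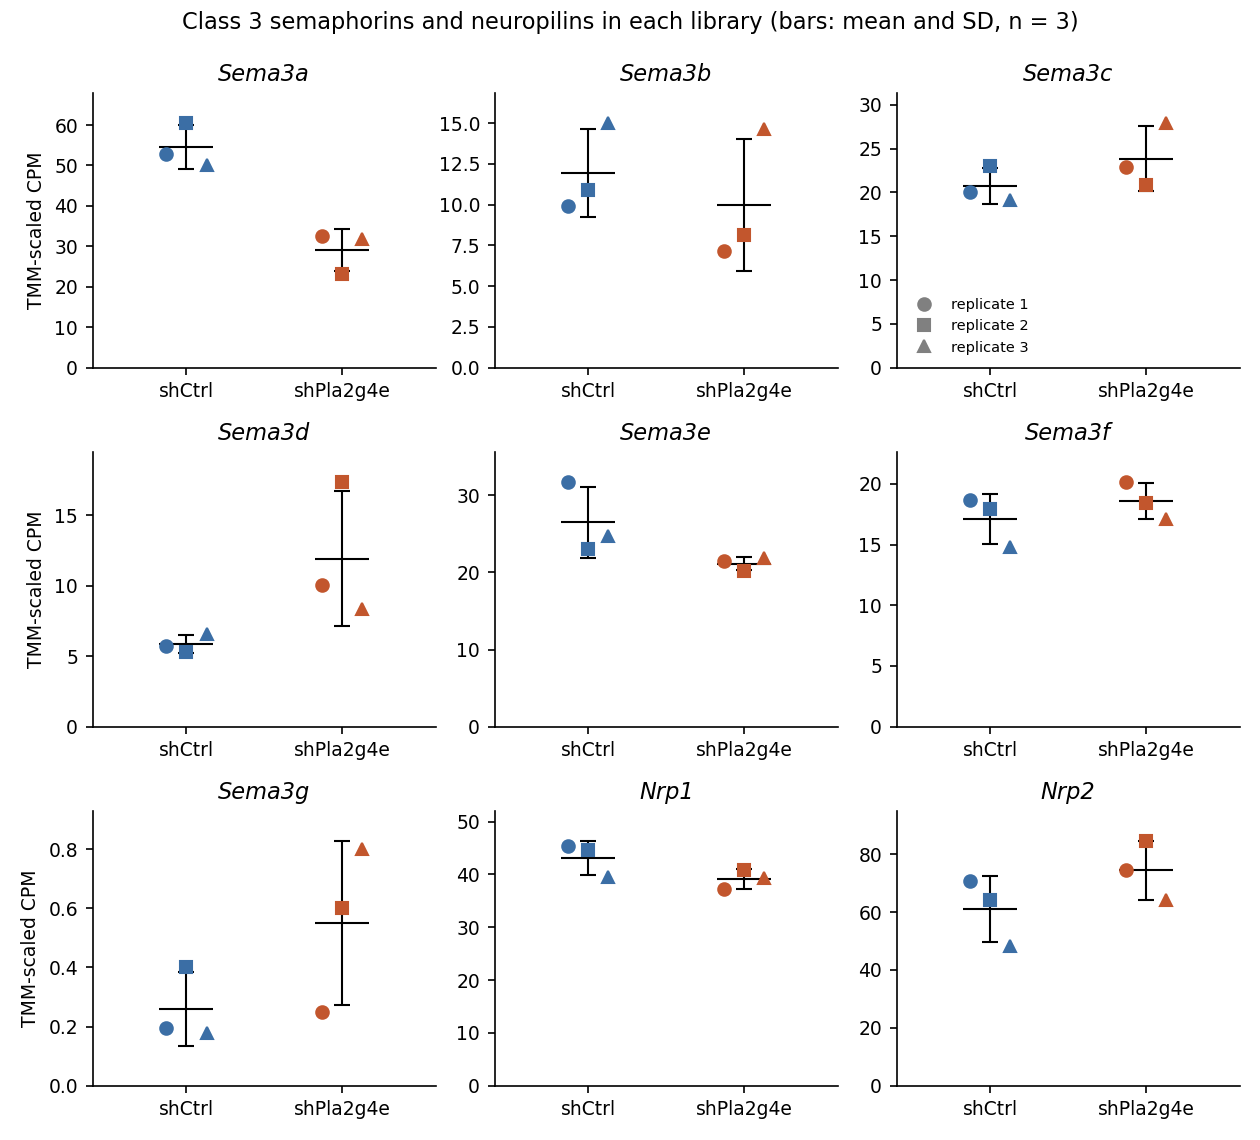
TMM-scaled CPM of the 7 ligands and the 2 neuropilins in each of the 6 libraries (y axis from 0 in each panel, marker shape for the replicate number, horizontal bars for the mean and vertical bars for the SD of 3 libraries). *Sema3a* is below 33 CPM in each sh*Pla2g4e* library and above 50 CPM in each shCtrl library, whereas *Sema3d* rises to 17.4 CPM in 1 sh*Pla2g4e* library and to 8.34 and 10.04 CPM in the others.

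*Sema3e*, the ligand of plexin-D1, stood at 31.7, 23.0 and 24.7 CPM in shCtrl and at 21.4, 20.2 and 21.8 CPM in sh*Pla2g4e* libraries. The groups did not overlap, yet the gap between the lowest shCtrl and the highest sh*Pla2g4e* library was narrow, and shCtrl replicate 1 stood above the rest. The log2 fold change was −0.33 ± 0.12 (standard error, with an adjusted p of 0.0998), and with the replicate block the adjusted p was 0.0158, so that *Sema3e* was not called in either fit. Its interval of 2 standard errors ran from −0.57 to −0.08, and when shCtrl replicate 1 was left out the log2 fold change was −0.18 (adjusted p = 0.423).

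*Sema3b*, a ligand also known as a tumour suppressor, stood at 9.90, 10.9 and 15.0 CPM in shCtrl and at 7.15, 8.14 and 14.6 CPM in sh*Pla2g4e* libraries. Replicate 3 was the highest library of both groups and the groups overlapped, while the value was lower in sh*Pla2g4e* within each of the 3 replicate numbers. The log2 fold change was −0.28 ± 0.23 (standard error, with an adjusted p of 0.508), with an interval of 2 standard errors from −0.73 to 0.18. It was −0.65 (adjusted p = 0.0223) when sh*Pla2g4e* replicate 3 was left out and −0.08 when shCtrl replicate 3 was.

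*Sema3c*, which attracts some cortical axons, stood at 20.1, 23.1 and 19.1 CPM in shCtrl and at 22.9, 20.8 and 27.9 CPM in sh*Pla2g4e* libraries. The groups overlapped, and the value was higher in sh*Pla2g4e* within numbers 1 and 3 and lower within number 2. The log2 fold change was 0.20 ± 0.13 (standard error, with an adjusted p of 0.349) with an interval from −0.05 to 0.45, and it was 0.08 when sh*Pla2g4e* replicate 3 was left out.

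*Sema3f*, the main ligand of neuropilin-2 and a repellent for hippocampal axons, stood at 18.7, 17.9 and 14.8 CPM in shCtrl and at 20.2, 18.5 and 17.1 CPM in sh*Pla2g4e* libraries. The groups overlapped, with small positive differences within all 3 numbers. The log2 fold change was 0.12 ± 0.12 (standard error, with an adjusted p of 0.608) with an interval from −0.13 to 0.37, and it ranged from 0.02 to 0.19 as single libraries were left out. A change of the size of that of *Sema3a* lies outside the interval.

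*Sema3g*, best known from endothelial cells, was close to the limit of detection, with 4, 8 and 4 reads in shCtrl and 6, 13 and 14 reads in sh*Pla2g4e* libraries. The groups overlapped, and the log2 fold change of 1.06 had a standard error of 0.70 (adjusted p = 0.384). Its interval from −0.34 to 2.47 leaves the direction unknown at this depth. The summed CPM of 6 endothelial markers was 1.598 to 1.76 in shCtrl and 2.22 to 2.69 in sh*Pla2g4e* libraries, with *Cldn5* and *Tie1* at 0 reads, and none of the 3 markers that could be tested was called. Their part in the *Sema3g* values was not tested.

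The receptor *Nrp1*, which carries most Sema3A signalling, stood at 45.4, 44.5 and 39.5 CPM in shCtrl and at 37.1, 40.9 and 39.4 CPM in sh*Pla2g4e* libraries. The groups overlapped, with a lower value in sh*Pla2g4e* within each number, by next to nothing in number 3. The means were 43.1 ± 3.21 and 39.1 ± 1.90 CPM (SD, n = 3), and the log2 fold change of −0.14 ± 0.09 (standard error, with an adjusted p of 0.370) had an interval from −0.32 to 0.04.

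The receptor *Nrp2* stood at 70.9, 64.1 and 48.4 CPM in shCtrl and at 74.5, 84.6 and 64.2 CPM in sh*Pla2g4e* libraries. The groups overlapped because replicate 3 was the lowest library of each group, and within every number the sh*Pla2g4e* library was the higher. The means were 61.1 ± 11.5 and 74.4 ± 10.2 CPM (SD, n = 3), and the log2 fold change was 0.29 ± 0.13 (standard error, with an adjusted p of 0.161). *Nrp2* was not called, although its interval of 2 standard errors, from 0.04 to 0.54, did not include 0. The log2 fold change ranged from 0.14 to 0.41 as single libraries were left out, with 0.14 when shCtrl replicate 3 and 0.18 when sh*Pla2g4e* replicate 2 was the one left out. With the replicate block the log2 fold change was again 0.29 and the adjusted p was 0.00245, which made it a call. In that fit 1 member (*Sema3a*) was called lower and 2 (*Sema3d* and *Nrp2*) higher, where 9.02% of all genes were called lower and 6.5% higher.

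A ratio of neuropilin reads within a library does not depend on how libraries are scaled. The log2 ratio of *Nrp1* to *Nrp2* reads was −0.64, −0.53 and −0.30 in shCtrl and −1.005, −1.05 and −0.70 in sh*Pla2g4e* libraries. Every sh*Pla2g4e* library was below every shCtrl library, but the gap was narrow, between −0.64 in shCtrl replicate 1 and −0.70 in sh*Pla2g4e* replicate 3. *Nrp2* reads outnumbered *Nrp1* reads in all 6 libraries, and by more in the sh*Pla2g4e* group. The mean moved from −0.49 ± 0.177 to −0.92 ± 0.187 (SD, n = 3), a difference of −0.43. The exact permutation test gave a two-sided p of 0.1, the smallest that 3 against 3 libraries can give, and within replicate numbers the exact p was 0.25, again the smallest possible. Neither test could pass a threshold of 0.05 in this design.

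**Figure D2:**
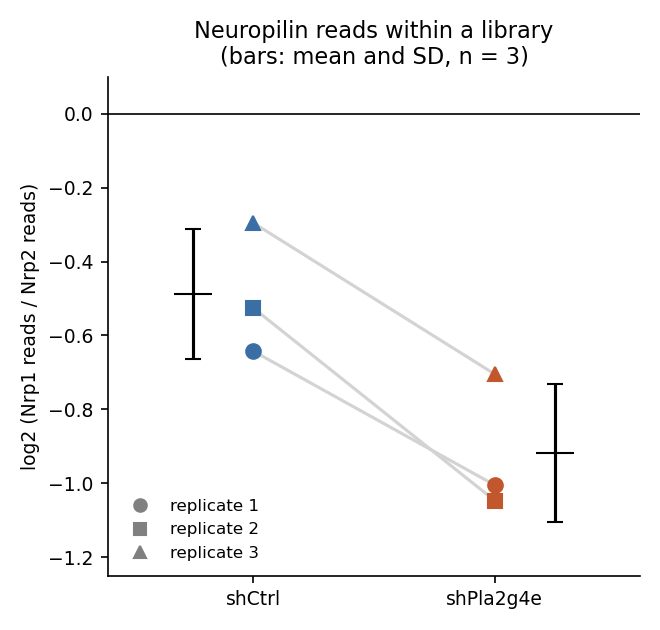
Log2 ratio of *Nrp1* to *Nrp2* reads in each library (y axis, no unit), by group, with grey lines joining libraries of the same replicate number and black bars for the mean and SD of 3 libraries. All 3 lines go down from shCtrl to sh*Pla2g4e*, and the groups do not overlap, though the gap between them is narrow.

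To compare levels between genes, CPM was divided by the length of a gene's exons. In shCtrl libraries the order of the levels, in CPM per kb, was *Nrp2* (5.16 ± 0.972), *Nrp1* (4.41 ± 0.328), *Sema3a* (3.93 ± 0.391), *Sema3f* (3.30 ± 0.397), *Sema3c* (2.91 ± 0.288), *Sema3e* (2.85 ± 0.499) and *Sema3b* (2.50 ± 0.566), each with the SD of 3 libraries. Neighbours in this order overlapped over the libraries, except for *Sema3a* and *Sema3f*. *Sema3d* (0.684 ± 0.0736) and *Sema3g* (0.0569 ± 0.0276) lay apart below the others. In sh*Pla2g4e* libraries *Sema3a* moved from the 3rd to the 6th place, behind *Sema3f*, *Sema3c* and *Sema3e*, but there its libraries overlapped those of *Sema3e*, and its mean of 2.10 CPM per kb was close to the 2.09 of *Sema3b*. The order of the neuropilins rests on the choice of length, since *Nrp1* has a short longest coding transcript of 3597 bases against an exon total of 9785. By longest coding transcript, a choice made after seeing the data, *Nrp1* came first in shCtrl with 11.99 CPM per kb, followed by *Sema3a* with 9.19 and *Nrp2* with 9.10, and in sh*Pla2g4e* libraries *Nrp2* came first and *Sema3a* 4th.

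The shares of the ligands in their summed level were also set side by side, without a test. Per exon length, *Sema3a* made up 23.2%, 26.4% and 22.95% of the summed level of the 7 ligands in shCtrl and 16.2%, 11.8% and 14.2% in sh*Pla2g4e* libraries. In shCtrl it was the largest share in every library, and in sh*Pla2g4e* it was below *Sema3c* and *Sema3f* in every library. *Sema3c* went from a mean of 17.9% to 22.4% and *Sema3d* from 4.23% to 9.47%, both without overlap. The shares of *Sema3b* (15.5% and 13.8%), *Sema3e* (17.6% and 15.3%) and *Sema3f* (20.3% and 24.2%) overlapped between groups. Without correction for length the share of *Sema3f* was 12.5% and 16.2%, and its groups did not overlap. Shares sum to a whole and so are not independent of each other, and the level of *Sema3c* by itself was not called. The summed level of the ligands was 16.2 ± 0.425 and 14.9 ± 1.02 CPM per kb (SD, n = 3), and it overlapped between groups. Without correction for length the sum was 139.2, 141.2 and 130.4 CPM in shCtrl and 114.4, 108.6 and 122.4 CPM in sh*Pla2g4e* libraries, without overlap. Without correction for length *Sema3a* held 39.8% of ligand reads in shCtrl and 25.2% in sh*Pla2g4e* libraries, and by longest coding transcript 34.8% and 21.5%. Its place among the ligands of sh*Pla2g4e* libraries thus rests on the choice of length, while under each of the 3 choices its share was lower in every sh*Pla2g4e* than in every shCtrl library.

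**Figure D3:**
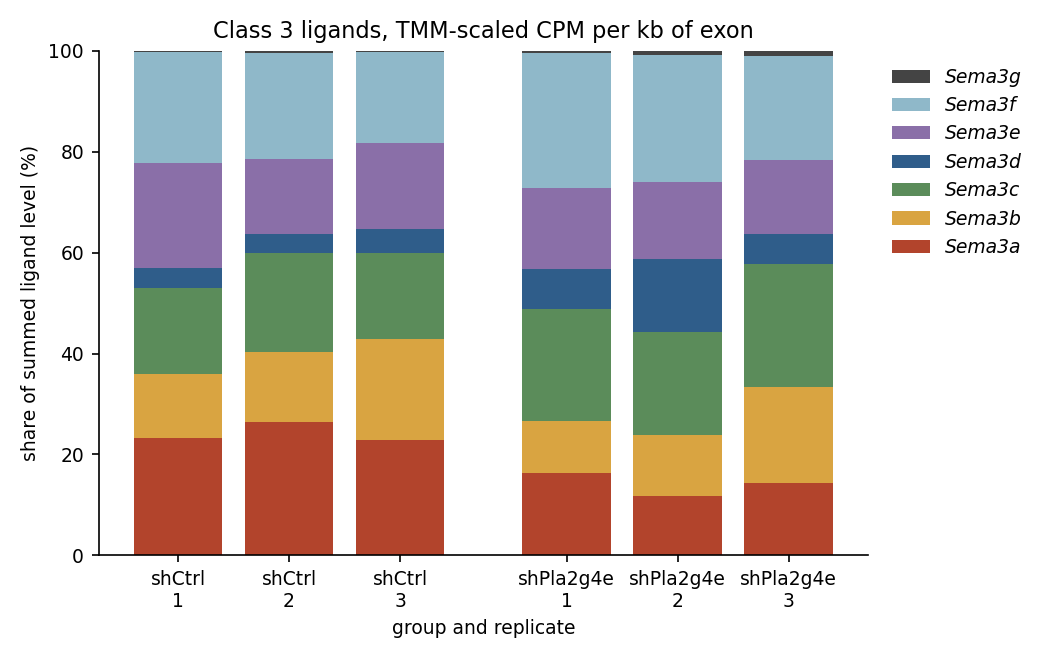
Share of each class 3 semaphorin in the summed ligand level of a library (y axis in percent, TMM-scaled CPM per kb of exon), with 1 bar per library. *Sema3a*, at the base of the bars, holds 22.95% to 26.4% in shCtrl and 11.8% to 16.2% in sh*Pla2g4e* libraries.

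The plexins that complete the receptor were given as a list, and 4 of 5 were called lower and none higher, where 4.0% of all genes were called lower and 2.48% higher. The list had a median log2 fold change of −0.68, against 0.03 over all genes. It was chosen with earlier results of these data known, so its count against all genes is a description and not a test. *Plxna2*, whose product transduces Sema3A and class 6 signals, stood at 335.7, 343.3 and 311.5 CPM in shCtrl and at 170.5, 149.5 and 155.5 CPM in sh*Pla2g4e* libraries (log2 fold change −1.06, adjusted p = 8.55e-07). *Plxna1*, the plexin most often paired with neuropilin-1, stood at 330.3, 305.8 and 282.6 CPM and at 194.8, 182.9 and 196.1 CPM (adjusted p = 4.85e-05 for a log2 fold change of −0.68). *Plxnd1*, the receptor of Sema3E, stood at 192.9, 178.3 and 169.8 CPM and at 111.8, 108.4 and 118.4 CPM (adjusted p = 4.34e-05 for a log2 fold change of −0.68). In these 3 genes the groups were far apart and the libraries of a group close together.

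*Plxna3*, the partner of neuropilin-2 in Sema3F signalling, fell from 92.6 ± 3.72 to 63.1 ± 1.76 CPM (SD, n = 3, log2 fold change −0.55, adjusted p = 1.96e-04), and its groups did not overlap. *Plxna4*, which transduces Sema3A in sensory and cortical neurons, stood at 190.9, 188.8 and 146.4 CPM in shCtrl and at 192.6, 208.5 and 150.9 CPM in sh*Pla2g4e* libraries. These groups overlapped almost wholly (log2 fold change 0.07, standard error 0.12, adjusted p = 0.777, interval from −0.17 to 0.31), and the log2 fold change ran from −0.05 to 0.19 as single libraries were left out, so that the sign turned with the library left out. Each of the 4 plexins that fell was called under all 16 alternatives.

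**Figure D4:**
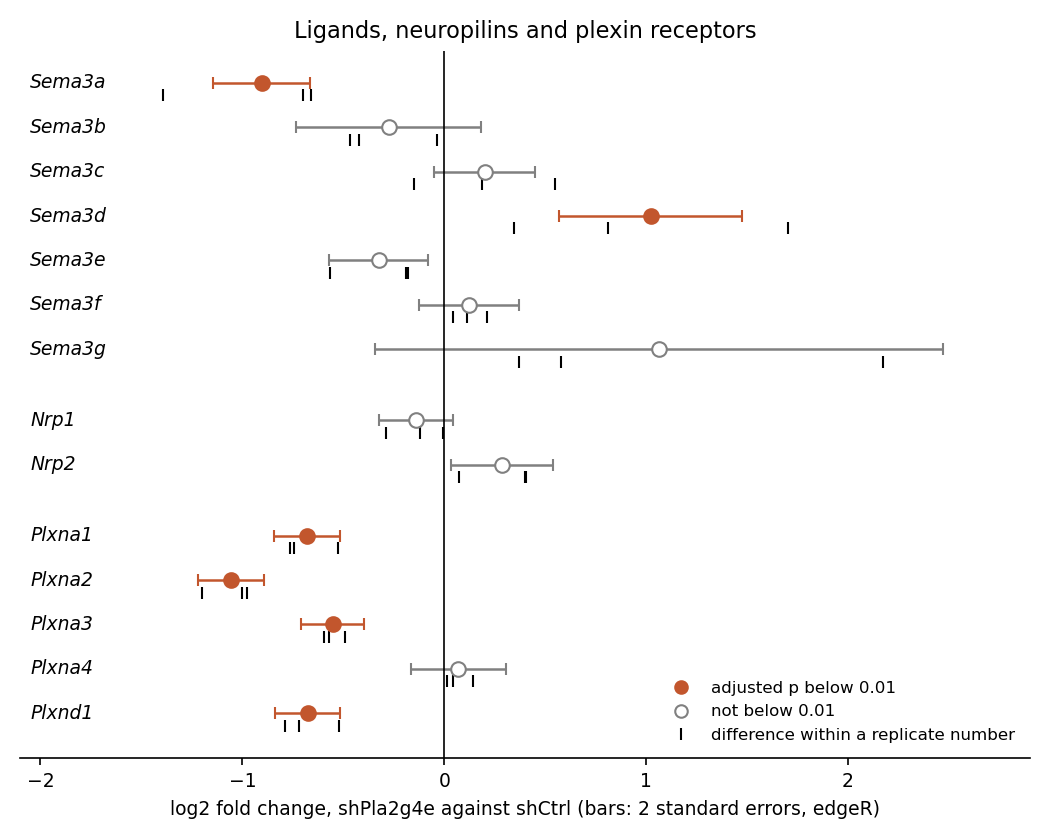
Log2 fold change of sh*Pla2g4e* against shCtrl (x axis) for the 7 ligands, the 2 neuropilins and the 5 plexins, with bars of 2 standard errors from edgeR, filled circles for an adjusted p below 0.01 and black ticks for the difference within each replicate number. Among the called genes, *Sema3a* and 4 plexins lie left of 0 and *Sema3d* lies right of 0, with ticks from 0.34 to 1.70. Of the genes not called, the bars of *Sema3e* and *Nrp2* leave out 0 and those of the others include it.

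Other genes of the pathway were followed as lists, to be read against the 4.0% of all genes called lower and 2.48% called higher, or with the replicate block 9.02% and 6.5%. These lists, too, were chosen with earlier results of these data known, so the counts describe them and test nothing. Of 5 adhesion molecules that act as co-receptors 1 was called lower and none higher, and the median log2 fold change was −0.31, and with the replicate block 4 were called lower. The called one was *L1cam*, a partner of neuropilin-1 in Sema3A signalling, which fell from 396.1 ± 32.5 to 270.6 ± 12.4 CPM (SD, n = 3, log2 fold change −0.55, adjusted p = 3.64e-04). Of 27 intracellular mediators 6 were called lower and none higher, with a median of −0.17, and with the block 11 were called lower. *Rras2*, a Ras-family GTPase related to the R-Ras that plexins inactivate, fell the furthest of those named, from 39.3 ± 1.04 to 13.8 ± 0.444 CPM (SD, n = 3, log2 fold change −1.51, adjusted p = 1.68e-07). *Limk1*, the kinase that inactivates cofilin, fell from 79.2 ± 3.77 to 56.3 ± 3.02 CPM (adjusted p = 7.94e-04 for a log2 fold change of −0.49). Cofilin itself, *Cfl1*, had the highest level per length of the list and stood at 597.7 ± 24.02 and 568.9 ± 9.52 CPM (adjusted p = 0.622 for a log2 fold change of −0.07, and −0.09 to 0.0037 over the alternatives).

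Of 13 semaphorins of other classes 1 was called lower and none higher, and the median log2 fold change was −0.10. This was *Sema4g*, a membrane-bound class 4 semaphorin, which fell from 229.8 ± 22.3 to 144.9 ± 6.40 CPM (SD, n = 3, log2 fold change −0.66, adjusted p = 9.66e-05). *Sema6b*, the member with the highest level per length, stood at 128.0 ± 14.7 and 139.0 ± 4.55 CPM (adjusted p = 0.454 for a log2 fold change of 0.12, and 0.03 to 0.19 as single libraries were left out). With the block, 3 of these 13 genes were called lower and 1 higher.

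None of 8 VEGF ligands and receptors was called, with a median of 0.21. *Vegfa*, the growth factor that shares neuropilins with the semaphorins, stood at 215.5, 194.7 and 249.4 CPM in shCtrl and at 265.3, 228.7 and 301.6 CPM in sh*Pla2g4e* libraries. The groups overlapped and the value was higher in sh*Pla2g4e* within every number (log2 fold change 0.27, adjusted p = 0.117, and 5.82e-04 with the replicate block, where 2 of the 8 were called higher), with log2 fold changes from 0.17 to 0.37 as single libraries were left out. None of 7 proprotein convertases, the proteases that cleave class 3 semaphorins, was called, and 2 were called lower with the block. The convertase with the highest level per length, *Pcsk2*, stood at 182.3 ± 28.3 and 170.2 ± 20.5 CPM (SD, n = 3, log2 fold change −0.10, adjusted p = 0.653), with log2 fold changes from −0.22 to −0.0026 as single libraries were left out. Over all 65 genes of these lists 12 were called lower and none higher, the median log2 fold change was −0.12, and the groups did not overlap in 27. With the replicate block 24 were called lower and 3 higher, where 9.02% and 6.5% of all genes were. In the fit without the block, over all genes tested 4.0% were called lower and 2.48% higher, and the groups did not overlap in 30.0%.

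The summed markers of 3 lists of neuronal genes did not overlap between the groups. The summed CPM of 6 markers of glutamatergic neurons was 970.3 to 1245 in shCtrl and 612.5 to 673.8 in sh*Pla2g4e* libraries, without overlap, with 2 called lower and 1 higher. The 7 pan-neuronal markers summed to 4367 to 4632 and to 3781 to 4147 CPM, again without overlap, with 3 called lower and 1 higher. The 5 markers of Cajal-Retzius cells, early-born cortical neurons, summed to 236.5 to 270.6 and to 156.7 to 217.8 CPM with 1 called lower. These sums were lower in the same libraries in which *Sema3a* and 4 plexins were lower, and their part in those results was not tested.

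The sums of 8 GABAergic markers (818.3 to 897.4 and 784.9 to 885.1 CPM, with 2 called in each direction), of 7 astrocyte markers (1538 to 2215 and 1140 to 1937 CPM, with 1 called lower) and of 8 oligodendrocyte lineage markers (516.4 to 585.4 and 536.3 to 640.3 CPM, with none called) overlapped between groups. So did those of microglia (3.07 to 7.73 and 2.59 to 4.23 CPM over 6 markers), mural cells (26 to 69.8 and 28.1 to 73.8 CPM over 6 markers, with *Kcnj8* at 0) and fibroblasts and meninges (20.02 to 27.2 and 25.1 to 34.1 CPM over 6 markers), with none called. The sums of GABAergic, astrocyte and microglia markers were lower in sh*Pla2g4e* within every replicate number, and those of fibroblasts and meninges were higher. For astrocytes they went from 1538 to 1175, from 1808 to 1140 and from 2215 to 1937 CPM. The oligodendrocyte and mural sums differed in direction between numbers. The part of these sums in the other results was not tested. The neuronal markers were the most abundant of the marker lists in every library, and astrocyte markers were present in all 6.

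The genes whose values over the 6 libraries were most like those of the called members were sought among 10931 genes with a mean of at least 8 CPM. The measure was the root mean square distance of centred log2 CPM. For *Sema3a* they were *Diras2*, a Ras-family GTPase (distance 0.0671), and *Gjd2*, the neuronal gap junction gene of connexin-36 (0.0689). *Gjd2* stood at 22.2, 23.8 and 20.8 CPM in shCtrl and at 12.1, 9.39 and 13.7 CPM in sh*Pla2g4e* libraries. Its lowest value was in sh*Pla2g4e* replicate 2. For *Sema3d* they were *Nnat*, the imprinted neuronatin gene (0.115), and *Masp1*, a serine protease gene of the complement system (0.151). *Nnat* stood at 205.7, 209.9 and 213.3 CPM in shCtrl and at 367.8, 567.3 and 333.8 CPM in sh*Pla2g4e* libraries. Its highest value was in sh*Pla2g4e* replicate 2. These genes were picked by their likeness to the members over the same 6 libraries, so a shared extreme library follows from the choice.

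By position on GRCm39, 4 of the 7 ligands lie on the plus strand of chromosome 5, namely *Sema3d* (chr5:12433352-12638915), *Sema3a* (chr5:13175381-13652533), *Sema3e* (chr5:14075290-14306703) and *Sema3c* (chr5:17779279-17935266). *Sema3d*, which rose, and *Sema3a*, which fell, are thus direct neighbours in the family at a gap of 536.5 kb, and none of the 5 genes between them had enough reads to be tested. Between *Sema3a* and *Sema3e*, 422.8 kb apart, 1 of 11 genes was tested and it was not called. *Sema3b* (chr9:107474873-107486428) and *Sema3f* (chr9:107558699-107587674) lie on the minus strand of chromosome 9 at 72.3 kb from each other, and none of the 4 genes tested between them was called. *Sema3g* (chr14:30939817-30952309), *Nrp1* (chr8:129085085-129229844) and *Nrp2* (chr1:62742444-62857854) lie alone on the plus strands of their chromosomes. No exon of the 9 members overlaps another gene except 0.818% of the exon bases of *Nrp1*, which lie under a microRNA gene of the same strand.

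Set beside the seed matches shown above, *Sema3a*, which fell, had a match in its coding sequence, *Sema3d*, which rose, had none, and *Nrp2*, the only member with a match in the 3′ UTR, had a positive log2 fold change. *Sema3f* and *Sema3g* also held a coding match and had log2 fold changes of 0.12 and 1.06, *Sema3b* held one and had −0.28, and *Sema3c*, *Sema3e* and *Nrp1* held none and had 0.20, −0.33 and −0.14. A match of letters is not a measured site, and its part in any of these values was not tested.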

How the data were processed

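RNA was measured in 6 libraries (TruSeq Stranded mRNA), 3 per group, grouped by the treatment label. The authors aligned reads with STAR 2.7.0d and deposited raw read counts per gene from featureCounts 1.6.0 (exons, no strand option, no option for pairs), versions per the submitters' processing notes and the file headers. Reads of overlapping genes on opposite strands could therefore not be told apart. The headers give GRCm39 and GENCODE vM28, used here for gene positions, whereas mm10 and M18 stand in the methods. The deposited files also hold the summed exon length of each gene. Symbols came from GENCODE vM21 and matched 52081 of 55357 identifiers.

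Genes that reached 6 reads in any library, as in the study's filter, were tested with edgeR 4.0.16 (R 4.3.3, TMM, quasi-likelihood, group as the only term), with Benjamini-Hochberg adjustment over all genes and a threshold of 0.01. Standard errors are from the F statistic. Alternatives were limma 3.58.1 after voom (the study's test), DESeq2 1.42.0, other scalings and filters, a robust fit, leaving out each library, a threshold of 0.05 and replicate number as a block. The likeness measure added 0.1 CPM before the log2. The scripts were tested on simulated data.

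Libraries share replicate numbers in the labels. Deviations from group means correlated at 0.392, 0.189 and 0.461 between same-numbered libraries (10908 genes) and at −0.393 to 0.108 otherwise. Same-numbered libraries thus tended to deviate alike, though 0.189 is not far above 0.108. Deviations from a group mean cancel within the group, so the matched and unmatched correlations are not independent. The main fit has no block, and blocked values are given where they change a call or a count. No libraries were duplicates: the chi-square per gene was 6.03 to 15.4 within groups and 19.1 to 38.0 between them.

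The members and the gene lists were chosen with earlier results of these data known. Named genes are all members, all 5 plexins, the up to 3 called genes of each list with the smallest adjusted p, the gene of each list with the highest level per length, and the 2 genes most like each called member. 1 gene that this rule picks among the intracellular mediators is not reported here. The seed match was searched in the transcript of each gene with the longest coding sequence, whereas levels by transcript use its longest coding transcript.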

Additional observations from a re-analysis of the deposited data

How the results depend on the processing

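The number of DEGs was 1419, and it was 2349 with no filter on low counts, 3395 with the replicate block and 2813 at a threshold of 0.05. It ranged from 695 to 1613 as single libraries were left out, with 928 without shCtrl replicate 1, 695 without shCtrl replicate 2, 854 without sh*Pla2g4e* replicate 1 and 931 without sh*Pla2g4e* replicate 2. The number of members called was 2, and it was 1 by limma after voom, with at least 10 reads in every library and with filterByExpr, 1 to 2 when each library was left out, and 3 with the replicate block. The member lost was *Sema3d* each time, and the block changed no other call among the members than that of *Nrp2*. The cause of these differences was not tested. *Sema3g* has no value under the filters that ask for more reads. The difference in the log2 ratio of *Nrp1* to *Nrp2* was −0.43 with the replicate block and ranged from −0.54 to −0.34 over the libraries left out, and no alternative could bring its exact p below 0.1. No member changed direction under any alternative. The standard error of the log2 fold change was 0.70 for *Sema3g*, 0.23 for *Sema3b* and 0.23 for *Sema3d*, above those of the other members.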
